A study of Mus musculus with 2 samples.

Results

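The ubiquitin genes described here are those with exactly 1 symbol in the array annotation that begins with Ube2, or with Rnf, Fbxo or Usp followed directly by a digit. Ube2c and Usp18 were left out by the same rule. This selected 142 of the 12393 genes named on the arrays, read by 251 of 20380 probe sets that have 1 symbol. The conjugases named Ube2 made up 26 genes, the RING finger genes named Rnf 56, the F-box genes named Fbxo 22 and the deubiquitinases named Usp 38. The rule goes by symbol and sets no signal cutoff, but members were chosen with earlier results of these data known.

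The RNA was that of NIH 3T3 cells, an established line of mouse embryonic fibroblasts, collected at 48 hours after lipid-based transfection. The ATCE1-C-del cells received the pHA-CMV-ATCE1-C-del plasmid, which carries a C-terminally truncated ATCE1 described as its nuclear form. The empty vector cells received pHA-CMV. ATCE1, now Creb3l4, belongs to the CREB family of bZIP transcription factors, and the question was which transcripts differ when its nuclear form is present. Each group was 1 sample on 1 Affymetrix array, so the values carry no error between replicates and nothing could be tested. The labels name the CMV promoter in the plasmid and do not give the share of cells that took it up.

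Ubiquitin is a small protein that is attached to other proteins through a relay of enzymes. An activating enzyme charges ubiquitin and passes it to a conjugase, and a ligase brings the charged conjugase to a chosen substrate. Most Rnf proteins are ligases whose RING finger holds the conjugase. Fbxo proteins are the substrate-binding subunits of cullin-based ligases, to which they attach through the adaptor Skp1. Usp proteins are proteases that take ubiquitin off again. The chains mark proteins for the proteasome or change their location and partners, and they drive cell cycle steps, protein quality control and chromatin regulation in dividing cells such as these.

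The values are MAS5 signals, a brightness per probe set on a linear scale. Low signals were raised to the median of their array, called the floor here, which was 77.4 for ATCE1-C-del and 75.9 for empty vector. A gene was measured if its signal reached the floor on at least 1 array. Each gene was read by its brightest probe set, and changes are log2 ratios of ATCE1-C-del over empty vector. All 13 fibroblast markers examined were measured, as were 2 of 9 macrophage markers, and 0 of 9 epithelial, 6 endothelial, 6 muscle and 7 spermatid markers were. Creb3l4 had a signal of 18.0 with ATCE1-C-del against 20.7 with empty vector, both under the floor, so the arrays do not show the inserted gene. Where its probes lie relative to the truncated insert was not known here.

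CREB family factors bind the cAMP response element TGACGTCA, and ATCE1 belongs to this family. Members of this group that hold the element, or its shorter core TGACGT, near their start are therefore shown first. Whether the truncated ATCE1 binds either motif was not tested. The 250 bases upstream of the annotated starts were searched on both strands, the shorter core lying inside the full element. The motifs were chosen after the ratios were seen. The sequences are from RefSeq, build GRCm38.p6, written 5′ to 3′ on the strand of the gene with the motif in capitals. The full element was found for Rnf7 and Ube2h. The other 3 hold the core and were chosen after their values were seen, as those with the largest ratios in either direction among the other members with the core. These were Ube2j1 and Usp36, higher with ATCE1-C-del, and Rnf103, lower.
Ube2h, chr6:30304540-30304583, minus strand: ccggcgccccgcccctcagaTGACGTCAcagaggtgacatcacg
Rnf7, chr9:96478712-96478759, minus strand: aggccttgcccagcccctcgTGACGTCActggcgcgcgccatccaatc
Ube2j1, chr4:33031294-33031339, plus strand: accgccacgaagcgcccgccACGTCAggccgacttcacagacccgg
Usp36, chr11:118290281-118290326, minus strand: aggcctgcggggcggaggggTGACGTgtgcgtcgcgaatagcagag
Rnf103, chr6:71493844-71493876, plus strand: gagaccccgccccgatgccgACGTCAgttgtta

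The motif ends 16 bases upstream of the start in Ube2h, 56 in Rnf7 and in Usp36, and 7 in Rnf103. The site of Ube2j1 shown ends 60 bases upstream, and a second one ends 1 base upstream. Of the 85 measured members with a promoter in the table, 2 held the full element, which is 2.35% beside 3.22% of all 5625 measured genes with a promoter. The core was in 12 of the 85, or 14.1%, beside 12.7% of all measured genes. A gene was counted if any of its promoters held the motif. Counted per promoter instead, 1.55% of all 32851 promoters in the table, measured or not, held the full element and 6.47% the core. Shares per gene and per promoter are not comparable. The 12 members with the core were centred at -0.011 (median log2 ratio), 5 being higher and 7 lower, and the 73 without it had a median of -0.030. Both medians lay close to 0, and the 12 ratios ran from -0.30 for Rnf103 to 0.42 for Ube2j1. A match of letters is a description of the window and not of binding.

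Ubiquitin genes as a whole lay near an equal signal on both arrays. In RNA of a whole culture, a change in every cell and a change in a share of the cells cannot be told apart. Of the 142 genes, 108 were measured, 101 of them above the floor on both arrays and 7 on 1 array only. With ATCE1-C-del, 49 of the 108 had a log2 ratio above 0 and 59 one below 0, so 45.4% were higher, where of all 6807 measured genes 48.7% were higher and 51.3% lower. Their median log2 ratio was -0.027, beside -0.0060 for all measured genes, and their ratios had a standard deviation across genes of 0.22, beside 0.23. At 1.5-fold, 1 member was higher and 1 lower. That is 1.85% of the measured members, beside 2% of all measured genes in either direction, 0.926% higher and 1.07% lower. With a lower threshold of 25% (the brighter signal at least 25% above the dimmer), 7 members were higher and 8 lower. That is 13.9% of the members, beside 14.6% of all measured genes in either direction, 6.68% higher and 7.89% lower. The members thus crossed each fold about as often as genes in general.

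The 4 prefix groups differed little in where they were centred. The median log2 ratio of Usp was 0.016 and 15 of its 27 measured genes were higher. This median is the ratio of Usp22, which is positive only because the floors differ, and without Usp22 it was 0.021 with 14 of 26 higher. That of Ube2 was -0.0040 and 12 of 24 were higher. Fbxo had a median of -0.058 with 6 of 17 higher, and Rnf one of -0.088 with 16 of 40 higher. Genes are not replicates, so these medians were set side by side without a test. The middle 50% of the Rnf ratios ran from -0.19 to 0.13 and that of the Ube2 ratios from -0.092 to 0.076, so all groups overlapped widely. The share at least 25% apart was 16.7% for Ube2, 15% for Rnf, 11.8% for Fbxo and 11.1% for Usp, all close to the 14.6% of all genes. The sign of the Ube2, Fbxo and Rnf medians turned positive when the arrays were scaled to the hybridisation controls, which moved the median of all measured genes to 0.24. That scaling adds the same amount to every ratio and cannot change the order of the groups. Only 45 of the 108 measured members have a second measured probe set, so its medians cover fewer genes. They were 0.043 for Fbxo, 0.021 for Rnf, -0.014 for Ube2 and -0.050 for Usp. The Ube2 value includes Ube2h and the Rnf value includes Rnf214, and the second ratio of each is a bound. Genes with both probe sets above the floor on both arrays allow a like comparison of brightest and second-brightest medians. These were -0.049 and -0.050 for 13 Usp genes and 0.017 and 0.069 for 9 Ube2 genes. For 17 Rnf genes they were -0.097 and 0.0065, and for 4 Fbxo genes -0.21 and 0.043.

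**Figure D1:**
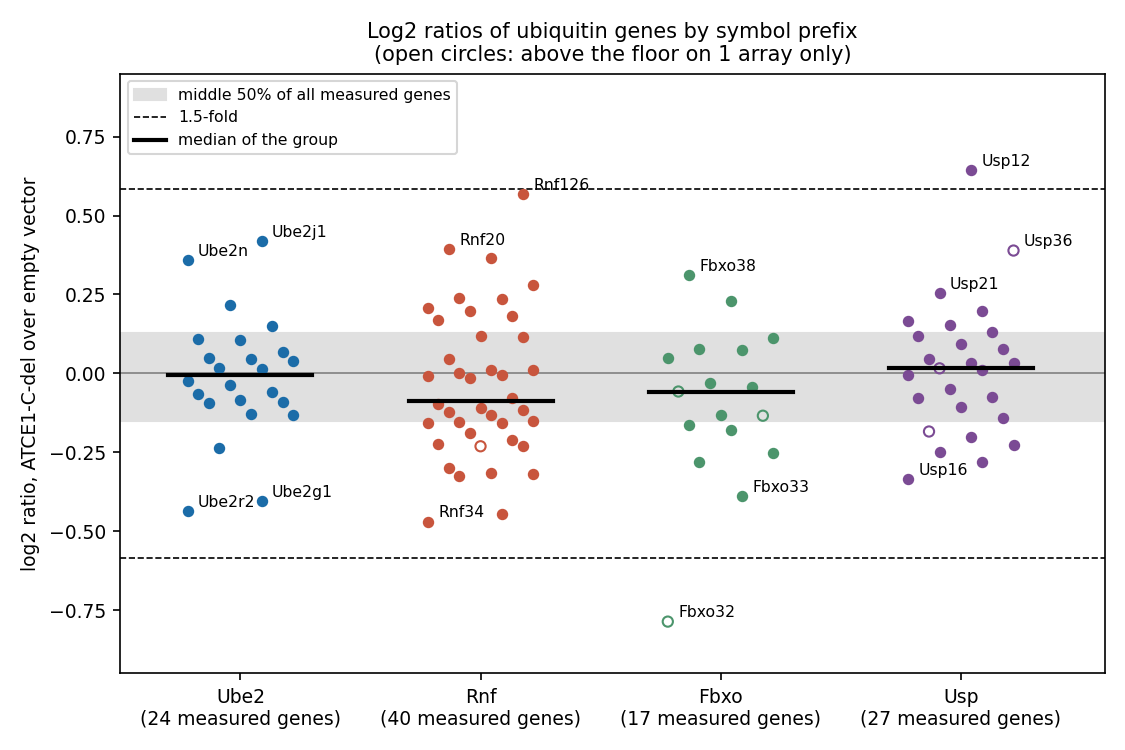
Log2 ratios of ATCE1-C-del over empty vector (vertical axis) for each measured ubiquitin gene, grouped by symbol prefix, with the group median as a black bar, the middle 50% of all measured genes as a grey band and dashed lines at 1.5-fold. Usp12 lies above the upper line and Fbxo32 below the lower one, and the 4 medians lie between -0.088 and 0.016.

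Among conjugases, 0 of 24 measured genes were 1.5-fold apart, beside 2% of all measured genes. At a share that low, a group of 24 genes can easily hold 0. Ube2j1, a conjugase anchored in the membrane of the endoplasmic reticulum that serves the degradation of misfolded proteins, had a signal of 299.9 with ATCE1-C-del against 224.2 with empty vector (1.34-fold higher). Its other probe set read 254.0 with ATCE1-C-del against 240.3 with empty vector, a log2 ratio of 0.08 beside 0.42 on the brightest. Ube2n, which with a Ube2v partner builds ubiquitin chains used in signalling and repair, had 1489.3 with ATCE1-C-del against 1160.2 with empty vector (1.28-fold higher). It was read by 1 probe set. On the lower side, Ube2r2, a relative of the cell cycle conjugase Cdc34, had 402.6 with ATCE1-C-del against 545.3 with empty vector (1.35-fold lower). Ube2g1, which extends chains on substrates of cullin ligases, had 675.4 with ATCE1-C-del against 893.4 with empty vector (1.32-fold lower). Each of these was also read by only 1 probe set, so the ratio has nothing on the array to be set against.

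Ube2h, a conjugase that works with the CTLH ligase complex, was lower on both of its probe sets. Its brightest probe set read 512.5 with ATCE1-C-del against 603.2 with empty vector (1.18-fold lower). The dimmer one read 54.7 with ATCE1-C-del, under the floor, and 107.0 with empty vector, which makes it at least 1.38-fold lower. The full response element shown above was found for Ube2h and also for Rnf7, whose log2 ratio was -0.014. Ube2s, which extends chains for the anaphase promoting complex, was 1.16-fold higher at 1921.9 with ATCE1-C-del against 1652.7 with empty vector. Ube2t, the conjugase of the Fanconi anaemia repair pathway, was 1.11-fold higher at 222.9 with ATCE1-C-del against 200.7 with empty vector. The Ube2v1 and Ube2v2 proteins resemble conjugases but lack the catalytic cysteine, and their genes had log2 ratios of -0.037 and -0.058. Ube2f, which carries the ubiquitin-like protein NEDD8, was lower on all 4 of its measured probe sets, with log2 ratios between -0.23 and -0.075. All 4 can match several transcripts, so they need not be independent readings.

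The Ube2d and Ube2e conjugases and Ube2w, which serve many ligases, were level on their brightest probe sets. Of 7 measured genes 2 were higher and 5 lower, their median ratio being -0.064 in log2, and 0 were 25% apart. Ube2d3 had the highest signal of any member, 4025.4 with ATCE1-C-del against 3978.0 with empty vector, a log2 ratio of 0.017. Its 6 measured probe sets ran from -0.64 to 0.07, the lowest being its dimmest measured one, at 119.9 with ATCE1-C-del against 187.0 with empty vector. The 4 brighter ones all lay between -0.057 and 0.069. Ube2d2a went the other way, from -0.20 to 0.46 over 4 probe sets, and again its dimmest, at 244.4 with ATCE1-C-del against 177.8 with empty vector, was farthest from 0.

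**Figure D2:**
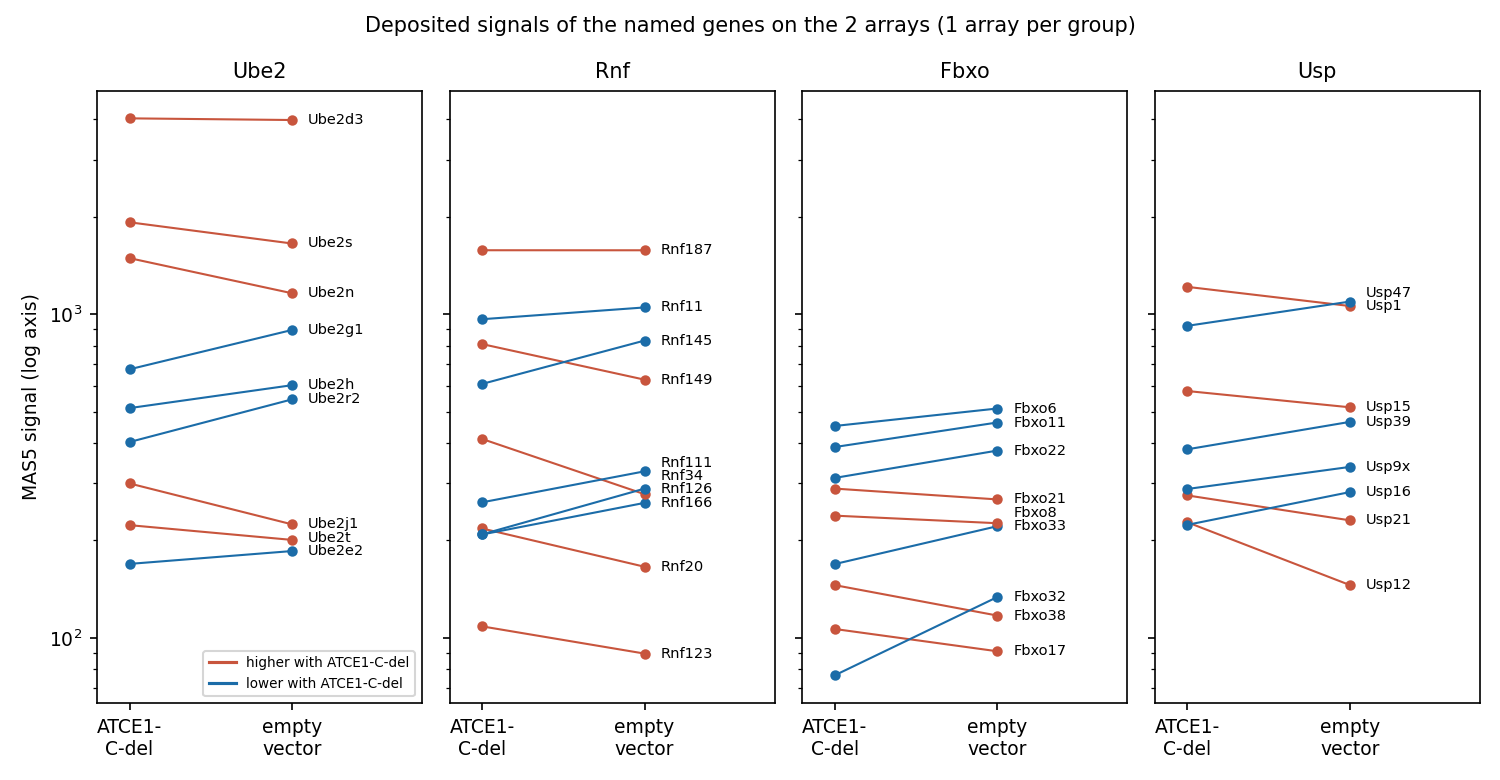
Deposited MAS5 signals (vertical log axis) of the named genes on the ATCE1-C-del array (left point) and the empty vector array (right point), 1 panel per prefix, red for higher and blue for lower with ATCE1-C-del. Genes named only for listed roles or after their values were seen, such as Usp36, are not drawn. Lines of both colours occur in every panel, and the steepest ones drawn belong to Fbxo32 (76.6 and 133.6) and Usp12 (227.5 and 145.6).

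The RING finger genes also had 0 of 40 measured genes 1.5-fold apart, where the share of all measured genes was 2%. Rnf126, a ligase of cytosolic protein quality control that works with the chaperone Bag6, came closest, at 411.5 with ATCE1-C-del against 277.8 with empty vector (1.48-fold higher). It was read by 1 probe set and passed 1.5-fold with lowess scaling. Rnf20, which attaches ubiquitin to histone H2B, had 217.7 with ATCE1-C-del against 165.8 with empty vector (1.31-fold higher), and its other 2 probe sets lay under the floor. Rnf149, a membrane-spanning ligase, had 808.1 with ATCE1-C-del against 627.4 with empty vector (1.29-fold higher). Rnf123, a ligase for the cell cycle inhibitor p27, had 108.5 with ATCE1-C-del against 89.4 with empty vector (1.21-fold higher).

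The lower RING finger genes were led by Rnf34, a ligase linked to the control of apoptosis, with 208.8 with ATCE1-C-del against 289.1 with empty vector (1.38-fold lower). Rnf145, a ligase of the endoplasmic reticulum that responds to sterols, had 608.7 with ATCE1-C-del against 828.7 with empty vector (1.36-fold lower). Rnf166 had 208.6 with ATCE1-C-del against 261.2 with empty vector, a log2 ratio of -0.32. Rnf111, which promotes TGF-beta signalling by degrading its inhibitors, had 262.2 with ATCE1-C-del against 326.9 with empty vector, also a log2 ratio of -0.32. All of these were read by 1 probe set each. The RING finger genes with the highest signals were level or nearly so: Rnf187, a coactivator of the AP-1 subunit Jun, had 1575.3 with ATCE1-C-del against 1574.9 with empty vector. Rnf11, an adaptor for Nedd4-type ligases, read 964.5 with ATCE1-C-del against 1048.8 with empty vector, a log2 ratio of -0.12, and its second probe set stood at a log2 ratio of -0.010.

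Only a part of the 40 measured RING finger genes was placed in a list by architecture. The lists are not complete, so their counts hold for the listed genes alone. Of 9 measured genes listed as membrane-bound or endomembrane ligases 3 were higher and 6 lower, at a median of -0.13 in log2. Rnf149 and Rnf145 were the extremes, Rnf5, a ligase of the endoplasmic reticulum, was 1.15-fold higher and Rnf103 was 1.23-fold lower. The 3 measured ligases of the RING-between-RING type, Rnf14, Rnf19a and Rnf19b, were all lower on their brightest probe sets, at log2 ratios of -0.12, -0.32 and -0.16. Their other probe sets did not all follow: the second of Rnf19a stood at 0.14 and the second of Rnf14 at 0.13, while that of Rnf19b stood at -0.081.

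Among F-box genes, Fbxo32 was the only one of 17 measured genes past 1.5-fold, or 5.88%, beside 2% of all measured genes. With so few genes this share does not describe the group. Fbxo32 encodes atrogin-1, the F-box protein known for muscle atrophy. Its signal was 76.6 with ATCE1-C-del, just under the floor, and 133.6 with empty vector, which makes it at least 1.73-fold lower. Its second probe set lay under the floor on both arrays, at 32.8 with ATCE1-C-del against 52.5 with empty vector, and so has no ratio here. With scaling to the hybridisation controls the log2 ratio on the brightest probe set was -0.54, short of 1.5-fold. The next was Fbxo33, at 169.0 with ATCE1-C-del against 221.2 with empty vector (1.31-fold lower). Its other probe set, almost as bright, went the opposite way, at 176.5 with ATCE1-C-del against 152.8 with empty vector.

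The other F-box genes lay less than 25% apart. Fbxo38 was 1.24-fold higher, at 145.5 with ATCE1-C-del against 117.2 with empty vector. Fbxo17, which binds glycoproteins, was 1.17-fold higher at 106.5 with ATCE1-C-del against 90.9 with empty vector. Fbxo6, of the same glycoprotein-binding family, was 1.13-fold lower at 451.3 with ATCE1-C-del against 511.0 with empty vector. Fbxo11, known for the degradation of the repressor Bcl6, was 1.19-fold lower at 388.5 with ATCE1-C-del against 462.6 with empty vector. Fbxo22 was 1.21-fold lower on its brightest probe set and stood at a log2 ratio of 0.018 on the second. Fbxo21 stood at 0.11 on its brightest probe set and at -0.28 on the second, and Fbxo8 was 1.06-fold higher on its only one.

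Among deubiquitinases, Usp12 was the only one of 27 measured genes past 1.5-fold once low signals were raised to the floor. That is 3.7%, beside 2% of all measured genes, and 1 gene does not describe the group. Usp12 is a relative of Usp1 that is activated by the same partner, Wdr48. Its brightest probe set read 227.5 with ATCE1-C-del against 145.6 with empty vector (1.56-fold higher). Its other 2 probe sets were lower, one at 130.3 with ATCE1-C-del against 159.5 with empty vector and the other at 87.0 with ATCE1-C-del against 95.3 with empty vector. Averaged over the 3, the log2 ratio was 0.074, and without probe sets that can match several transcripts it was -0.29. The direction given for Usp12 thus rests on 1 probe set.

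Usp1 itself, which removes ubiquitin from the Fanconi anaemia protein Fancd2 and from Pcna, was higher on all 3 of its probe sets. The brightest read 1214.0 with ATCE1-C-del against 1059.4 with empty vector (1.15-fold higher), and the others had log2 ratios of 0.019 and 0.29. Usp21, which acts on histone H2A, was 1.19-fold higher at 275.4 with ATCE1-C-del against 230.7 with empty vector. Usp16, which also acts on H2A, was 1.26-fold lower at 223.4 with ATCE1-C-del against 282.0 with empty vector. Usp15, a deubiquitinase of TGF-beta signalling, was 1.12-fold higher at 578.7 with ATCE1-C-del against 515.5 with empty vector. The nucleolar Usp36 was at least 1.31-fold higher, at 99.4 with ATCE1-C-del and 63.3, under the floor, with empty vector. Usp36 falls outside the naming rule and was added after its value was seen, because it is 1 of the 7 members at least 25% higher.

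On the lower side, Usp47 was lower on both probe sets, at 920.1 with ATCE1-C-del against 1093.3 with empty vector on the brightest (1.19-fold lower) and a log2 ratio of -0.13 on the other. Usp39, a splicing factor that lacks deubiquitinase activity, was 1.22-fold lower at 382.3 with ATCE1-C-del against 464.6 with empty vector, with its other probe set at 0.072. Usp9x, which was 1.17-fold lower on its brightest probe set, spanned -0.29 to 0.30 over 5 measured ones. Usp22, a subunit of the SAGA coactivator, got a log2 ratio of 0.016 only through the unequal floors, since it read 73.8 with ATCE1-C-del against 76.6 with empty vector.

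Members with related tasks were also compared. Of 6 measured genes with a role in the cell cycle or in replication-coupled repair, 5 were higher, with a median log2 ratio of 0.098. These were Ube2s, Usp1 and Ube2t, given above, and Ube2b and Ube2a, the conjugases of the Rad6 type, at 0.045 and 0.015. The ligase Rnf8, which acts at DNA breaks, was lower at -0.15. The list was assembled with the cell cycle genes of these arrays already known to be higher, so its direction is not independent evidence, and 0 of its members were 25% apart. Of 7 measured chromatin ligases and deubiquitinases 4 were higher and 3 lower, with a median of 0.016. That median is the value of Usp22, whose sign comes from the floors, and without it 3 were higher and 3 lower, with a median of -0.0088. Rnf20 stood at 0.39 at one end and Usp16 at -0.34 at the other, and the Polycomb ligase Rnf2 at -0.16 with its second probe set at -0.24.

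**Figure D3:**
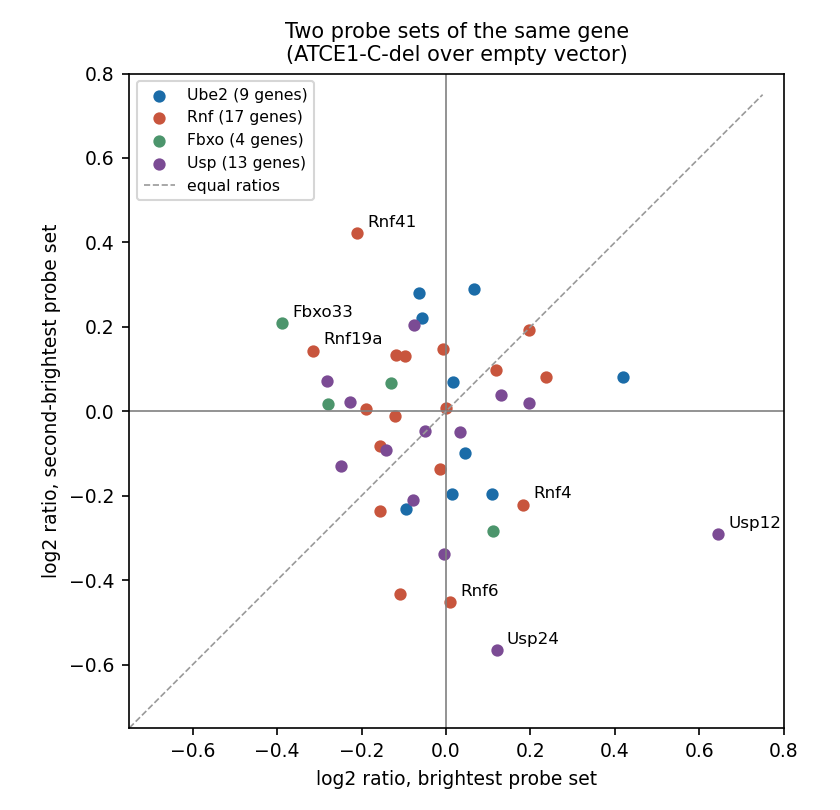
Log2 ratio of the brightest probe set (horizontal axis) against that of the second-brightest probe set (vertical axis) for 43 ubiquitin genes with both above the floor on both arrays, coloured by prefix. The points scatter over all 4 quadrants, with 20 genes on the same side of 0 on both axes and 23 on opposite sides, and Usp12 lies farthest from the line of equal ratios.

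Different probe sets of one ubiquitin gene often disagreed in direction, which limits every ratio above. Of 43 members with a second probe set above the floor on both arrays, 20 had both on the same side of 0, or 46.5%, beside 60.2% of all 2451 genes with such a pair. Across these 43 genes, which share the same 2 arrays, the ratios correlated with a Pearson r of -0.23, beside 0.29 across all such genes. The count by prefix was 4 of 9 for Ube2, 9 of 17 for Rnf, 0 of 4 for Fbxo and 7 of 13 for Usp. The SD that this disagreement puts on 1 probe set's log2 ratio was 0.22 for the members and 0.20 for all genes. The widest gaps after Usp12 were those of Usp24, with log2 ratios of 0.12 and -0.57, and Rnf41, a ligase of receptor turnover, with -0.21 and 0.42, both named after their values were seen. Of the 12 members with at least 3 measured probe sets, Ube2f and Usp1 had all of them on one side. Those of Ube2f can all match several transcripts, so their shared direction need not be independent.

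**Figure D4:**
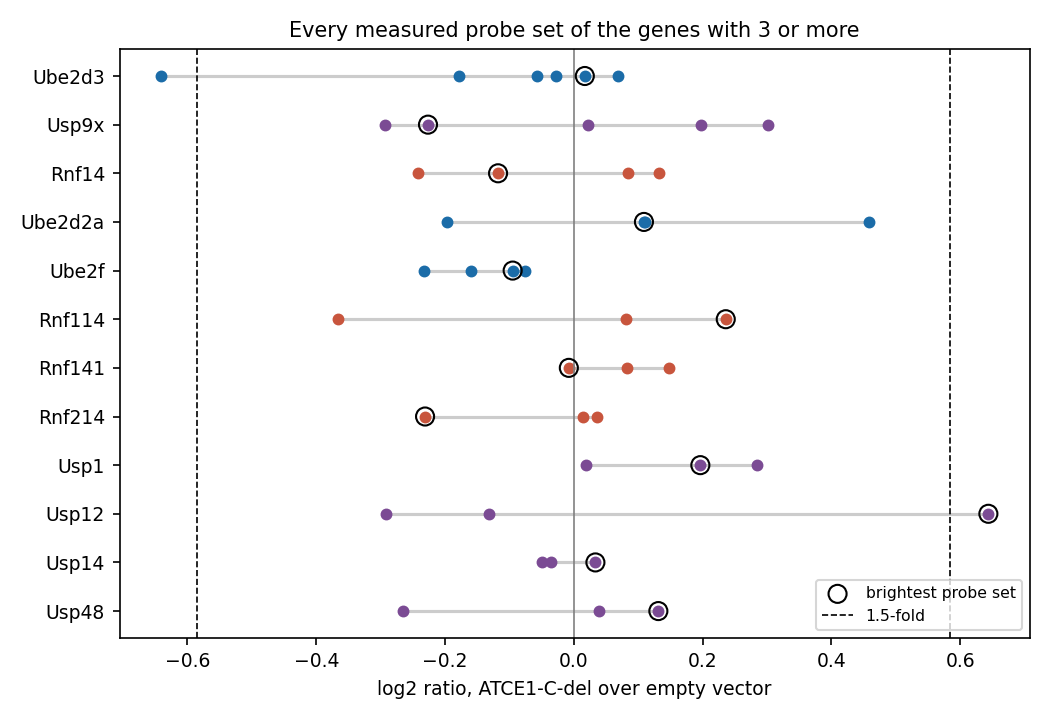
Log2 ratios of ATCE1-C-del over empty vector (horizontal axis) for every measured probe set of the 12 ubiquitin genes with 3 or more, 1 row per gene, with the brightest probe set circled, dashed lines at 1.5-fold and colours for the prefix groups as in the plots by prefix. The probe sets of Ube2f and Usp1 lie on one side of 0, those of the other 10 genes on both sides, and Ube2d3 and Usp12 each have a single probe set past 1.5-fold.

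The 34 members that did not reach the floor on either array had signals up to 73.2 with ATCE1-C-del against 75.5 with empty vector. They were 16 Rnf, 11 Usp, 5 Fbxo and 2 Ube2 genes. Among them were Fbxo43, an inhibitor of the anaphase promoting complex in germ cells, at 0.90 with ATCE1-C-del against 1.1 with empty vector, and Rnf17, a germ cell gene, at 13.9 with ATCE1-C-del against 4.60 with empty vector. Ube2l6, the conjugase for the interferon-induced protein ISG15, read 35.8 with ATCE1-C-del against 34.8 with empty vector. Rnf128, a membrane-spanning ligase known from T cells, read at most 6.80 with ATCE1-C-del against 2.0 with empty vector. Signals this low have no ratio here, and a signal under the floor does not show that a gene is silent.

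Other genes of the pathway were taken from 8 lists, with the members left out. Of 112 measured genes 58 were higher and 54 lower, at a median of 0.011 in log2. At 1.5-fold 0 were higher and 2 lower, or 1.79%, beside the 2% of all genes. Both were ligase genes: Fbxl20, of another F-box family, had 1.55-fold lower signal, and Itch, of the HECT family, 1.53-fold lower. The list of cullin, Skp1, Rbx, elongin and COP9 genes had 16 of 20 measured genes higher by small amounts, with a median of 0.081. Of these, 0 were 25% apart. Among all measured genes 48.7% were higher and 14.6% were 25% apart. Cul1, the scaffold to which Skp1 and F-box proteins bind, was level, at a log2 ratio of -0.0062. Among the genes that serve other adaptors, Cul2 was 1.18-fold higher and Eloc 1.13-fold higher, while Cul4b was 1.15-fold lower. This list holds 1 member, Rnf7, a RING subunit of cullin ligases, at -0.014. Of 16 other F-box genes 12 were lower, with a median of -0.034, where 51.3% of all measured genes were lower. Of the 16, 5 were at least 25% apart, or 31.25%, beside 14.6% of all measured genes. That list ran from Fbxl20 and Fbxw11 (1.43-fold lower) to the cyclin F gene Ccnf (1.41-fold higher). Fbxw7, which binds phosphorylated cyclin E, stood at a log2 ratio of 0.33.

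The remaining lists were mixed. Among all measured genes 48.7% were higher, 51.3% lower and 14.6% at least 25% apart. That last share was 28.6% for HECT ligases and 7.14% for other RING and U-box ligases. It was 7.14% for the anaphase promoting complex and 15.4% for deubiquitinases outside the Usp numbers. Over all 8 lists, with the members left out, it was 14.3%. HECT ligases, which take ubiquitin onto themselves before passing it on, had 9 of 14 measured genes lower, with a median log2 ratio of -0.17. Next to Itch stood Herc1 at 1.31-fold lower, and Hectd3 was 1.28-fold higher. Of 28 other RING and U-box ligases 12 were higher and 16 lower, with a median of -0.031, Siah2 and Birc3 being 1.42-fold and 1.39-fold higher and Birc2 and Cbl at log2 ratios of -0.32 and -0.28. The anaphase promoting complex had 8 of 14 higher, with a median of 0.046, from its activator Cdc20 at 1.20-fold higher to Cdc27 at 1.33-fold lower. Deubiquitinases outside the Usp numbers had 9 of 13 higher, with a median of 0.068, Otud7b being 1.26-fold higher and Zranb1 1.43-fold lower. Of 4 measured activating enzyme genes 2 were higher, the NEDD8-activating subunit Nae1 being 1.28-fold lower. Of 4 genes for ubiquitin-like proteins 2 were higher, Urm1 by 1.46-fold.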

How the data were processed

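The authors deposited 1 linear intensity per probe set and array, made with MAS5 per the submitters' processing notes. Its version, target value and detection calls were not given in sources used here. Both arrays had a trimmed mean of 250.1, with 2% of the values left out at either end. Each array held 22690 probe sets, of which 64 controls were left out. Signals were divided by the trimmed mean, raised to the array's median as a floor, and compared as log2 ratios. Printed signals are as deposited. With 1 array under its floor a fold is only a bound, and for Usp22 it is not even that, since its floored ratio has the opposite sign to its signals. Symbols came from the platform annotation, and all 142 members matched RefSeq (GRCm38.p6) by Entrez ID with 0 symbols changed.

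With 1 array per group, changes were counted at 1.5-fold and at 25% beside all measured genes. Genes are not replicates, and the number of arrays limits the precision. The SD from probe sets of one gene leaves out the variation between cultures. Signals of different probe sets are not comparable as levels. Named genes were all members past 1.5-fold, up to 4 per direction and prefix above the floor on both arrays, the 2 with the highest signal per prefix, members with listed roles, and up to 2 per direction of the other lists. Members and lists were chosen with earlier results of these data known. The steps were run on simulated data in which genes changed by more than the 1.5-fold threshold, so that run does not bear on smaller differences. The 15 alternatives covered scaling, floor, log scale, fold and choice of probe set. Python 3.11.15, numpy 2.4.6, pandas 2.3.3, statsmodels 0.14.6 and matplotlib 3.10.9 were used.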

Additional observations from a re-analysis of the deposited data

How the results depend on the processing

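No paired analysis was possible because there was 1 array per group, and no replicate could be left out. With lowess 2 members were 1.5-fold higher (1.85%, beside 0.926% of all genes), Rnf126 joining Usp12. Scaled to the hybridisation controls, 7 were higher (6.48%, beside 5.98% of all genes) and 0 lower (all genes 0.191%). The medians moved to 0.22 for all members, 0.16 for Rnf, 0.26 for Usp, 0.19 for Fbxo and 0.24 for Ube2. All measured genes stood at 0.24. With the floor at the 25th percentile 7 were higher (5.51%, all genes 8.10%) and 3 lower (2.36%, all genes 2.81%), and with no floor 13 of 142 (9.15%, all genes 14.0%) and 10 (7.04%, all genes 7.54%). At the 75th percentile 0 were higher and 0 lower, beside 0.244% and 0.515% of all genes, and the Fbxo median was -0.18. Restricted to genes above the floor on both arrays, 0 were lower, since Fbxo32 has a bound, beside 1.03% of all such genes. With the threshold at 25%, 7 were higher and 8 lower (13.9% together, all genes 14.6%). With the mean over probe sets 0 were higher, beside 0.735% of all genes. By the second-brightest probe set 0 of 45 members were higher and 0 lower, beside 1.48% and 1.82% of all genes with one. Among these 45, the medians were 0.021 for Rnf and 0.043 for Fbxo. Leaving out Usp22, chosen after the data were seen, gave medians of -0.030 for all members and 0.021 for Usp. Counted per probe set, 2 of 173 were lower (1.16%, all probe sets 1.44%). Without probe sets that can match several transcripts 0 of 78 members were higher, beside 0.960% of all genes. Usp12 turned to -0.29 under both the second-brightest probe set and the setting without such probe sets. Of 417 values of named genes under the alternatives, 368 moved by less than 0.20, the SD between probe sets over all genes. Another 49 moved further or turned, and 21 of the 417 had the other sign. The hybridisation controls had a median log2 ratio of -0.25, so scaling to them shifts every ratio alike by more than 0.20. All these named genes therefore count as moved under that setting, and they make up most of the 49. Most of the rest came from settings that change which probe sets are read. Some named ratios are themselves smaller than this SD, and some alternatives, such as the signals as deposited, hardly change any ratio. Depth has no counterpart on arrays; signal over the floor limited what could be measured.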
